A study of Mus musculus with 8 samples.

Results

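The glutathione S-transferase, UDP-glucuronosyltransferase and sulfotransferase genes (symbols beginning Gst, Mgst, Ugt and Sult) were examined in whole liver of wild-type (WT) mice and of mice with a liver-specific knockout of E4bp4 (E4bp4-LKO). The members were taken by symbol alone and comprised 59 of the 16796 genes listed in the deposited files: 25 Gst and Mgst genes, 20 Ugt genes and 14 Sult genes. All 8 mice, 4 WT (numbers 164, 165, 166 and 167) and 4 E4bp4-LKO (numbers 143, 144, 145 and 179), received a diet that induces non-alcoholic steatohepatitis (NASH) for 20 weeks from 2 months of age, so no liver on another diet enters the comparison. E4BP4, encoded by Nfil3, is a repressor that binds D-box elements in DNA. The sex and strain of the mice, whether the groups were littermates, and the driver of the knockout are not stated by the sources used here, and genetic background and loss of E4bp4 cannot be told apart. Each library came from 1 labelled mouse.

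These enzymes carry out phase II of drug and hormone metabolism, in which a polar group is attached to a foreign or endogenous molecule so that it can leave the cell. Glutathione S-transferases join glutathione to electrophiles, and the Mgst enzymes do so in membranes. UDP-glucuronosyltransferases sit in the endoplasmic reticulum and transfer glucuronic acid to bilirubin, steroids, bile acids and drugs, while cytosolic sulfotransferases transfer sulfate from the donor PAPS. The liver is the main organ for all these reactions, and the families grew by tandem duplication, so that near-identical genes lie side by side.

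Levels are given as TMM-normalized CPM (read counts scaled to library size) for comparing livers, and as FPKM, which also divides by transcript length, for comparing genes. Library totals ran from 23805540 to 32290265 expected counts, and the members took 1.38% to 1.78% of them. Nfil3 measured 12.2 ± 3.20 CPM in WT and 4.76 ± 1.64 CPM in E4bp4-LKO (SD, n = 4 each). On the log2 scale, its fitted fold change came to -1.35 (SE 0.25, adjusted p = 0.0121), and p was 0.0286 in a permutation test (exact, two-sided), the smallest value of 70 arrangements. WT 164 was the lowest WT liver for 32 of the 48 members tested (66.7%), against 31.7% of all genes tested. Its TMM factor was 1.16 and that of WT 165 was 1.09, against 0.941 to 1.00 in the other libraries.

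Of the 59 members, 48 passed the filter on low counts and 12 of these changed at an adjusted p under 0.05, which is 25.0% of those tested; such genes are said to be called. Over all 13244 genes tested the corresponding share was 10.8%. Among the members, 6 were higher in E4bp4-LKO (background 4.36%) and 6 were lower (background 6.48%). The families did not divide alike: of 23 Gst and Mgst genes tested, 1 rose and 6 fell, of 17 Ugt genes 3 rose and 0 fell, and of 8 Sult genes 2 rose and 0 fell. At an unadjusted p under 0.05 in edgeR, 9 Gst and Mgst, 12 Ugt and 3 Sult genes passed, and DESeq2 called 1 Ugt gene lower, Ugt1a7c. With library totals 8 members were lower, Ugt1a6a and Ugt1a7c among them, and limma on FPKM called Ugt1a6a lower with each pseudocount. Limma without a low-value filter also called Sult2b1 lower, a gene near the detection floor. The median log2 fold change stood at 0.10 for Gst and Mgst, 0.30 for Ugt and 0.39 for Sult, beside 0.01 for all genes tested. The groups did not overlap for 15 of the 48 members, beside 18.5% of all genes tested. The difference between families was not itself tested.

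**Figure D1:**
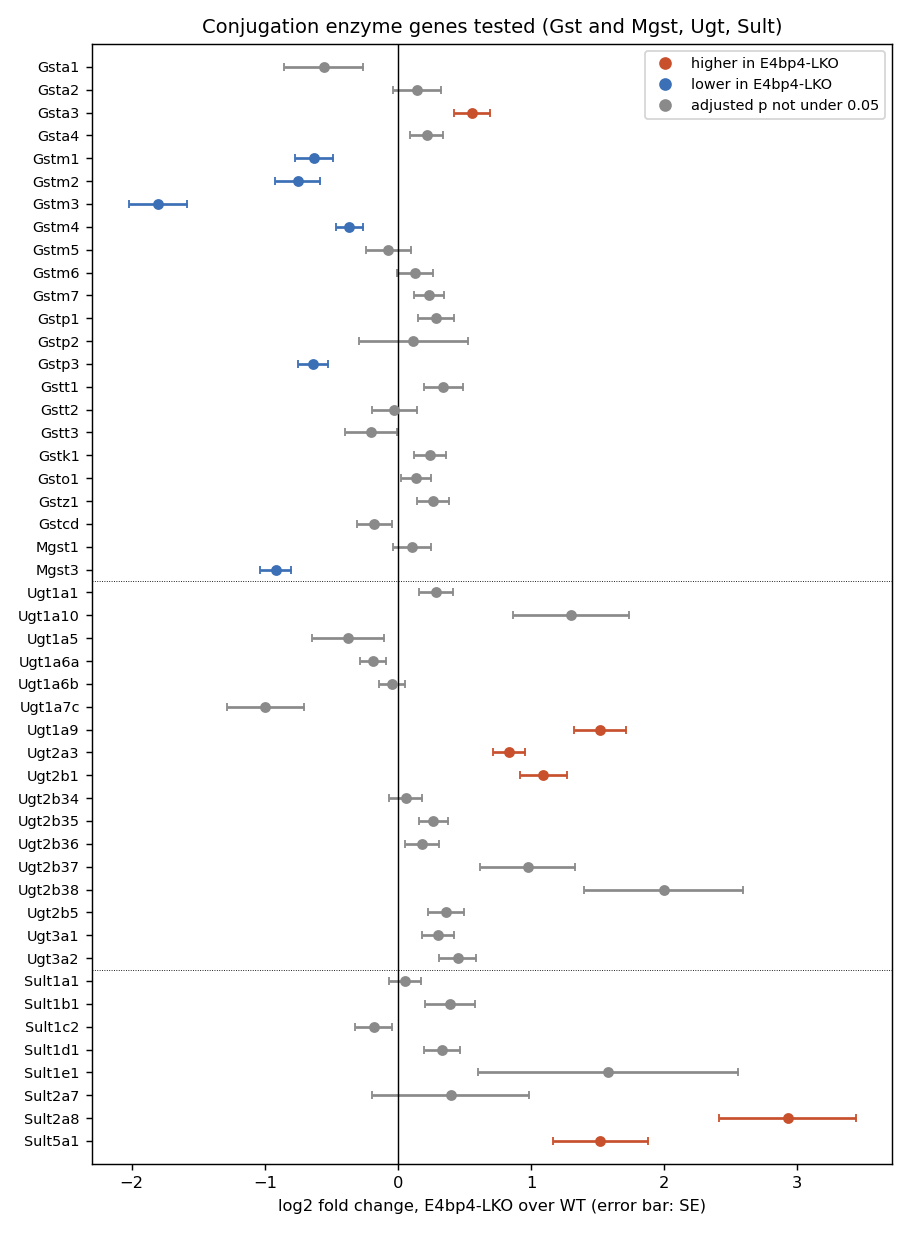
Log2 fold change (E4bp4-LKO over WT, horizontal axis) with its SE for each of the 48 members tested, ordered by family and subfamily; red points were higher, blue points lower and grey points not past an adjusted p of 0.05. The blue points are all Gst or Mgst genes, with Gstm3 farthest to the left at -1.80, and the farthest to the right is Sult2a8 at 2.93.

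The lower members were led by the mu class of glutathione S-transferases, the most abundant soluble class here. Gstm3, a mu-class enzyme, measured 963, 634, 539 and 728 CPM in WT 164 to 167 and 270, 183, 145 and 222 CPM in E4bp4-LKO 143, 144, 145 and 179. Every WT liver lay above every E4bp4-LKO liver, and WT 164 was the highest of all. The fitted log2 fold change came to -1.80 (SE 0.22, adjusted p = 0.00183), a 3.49-fold lower level. Gstm2 measured 180, 169, 214 and 280 CPM in WT and 148, 131, 97.3 and 124 CPM in E4bp4-LKO, again with no overlap, and its fitted log2 fold change came to -0.75 (SE 0.17, adjusted p = 0.0227). Gstm1, the main mu-class enzyme of these livers, measured 4008, 4152, 4973 and 5333 CPM in WT and 3332, 2760, 2499 and 3311 CPM in E4bp4-LKO. The groups did not overlap, and its fitted log2 fold change came to -0.63 (SE 0.14, adjusted p = 0.0214). Gstm4 fell by 0.37 on the log2 scale (SE 0.10, adjusted p = 0.0451), from 87.7 ± 8.44 to 68.0 ± 8.97 CPM (SD, n = 4), and its groups overlapped because E4bp4-LKO 143 at 80.5 CPM exceeded WT 164 at 78.1 CPM.

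The other 3 mu-class genes did not pass the test. The log2 fold change of Gstm5 stood at -0.07 (adjusted p = 0.823), that of Gstm6 at 0.13 (adjusted p = 0.575) and that of Gstm7 at 0.23 (adjusted p = 0.195). With library totals Gstm6 was at -0.013, and without both WT 164 and WT 165 Gstm5 was at 0.24. In the RefSeq gene order of GRCm38.p6 the mu genes stand as Gstm5, Gstm7, Gstm6, Gstm3, Gstm2, Gstm1 and Gstm4, with no other protein-coding gene between them. The 4 genes that fell are thus neighbours at one end of the row. Summed over the 7 mu genes, WT livers held 5344, 5159, 5956 and 6591 CPM and E4bp4-LKO livers 3986, 3288, 2957 and 3846 CPM, a ratio of 0.611 with no overlap between groups. Gstm3 made up 12.6% ± 3.85 of the mu-class counts in WT and 5.76% ± 0.769 in E4bp4-LKO (SD, n = 4).

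**Figure D2:**
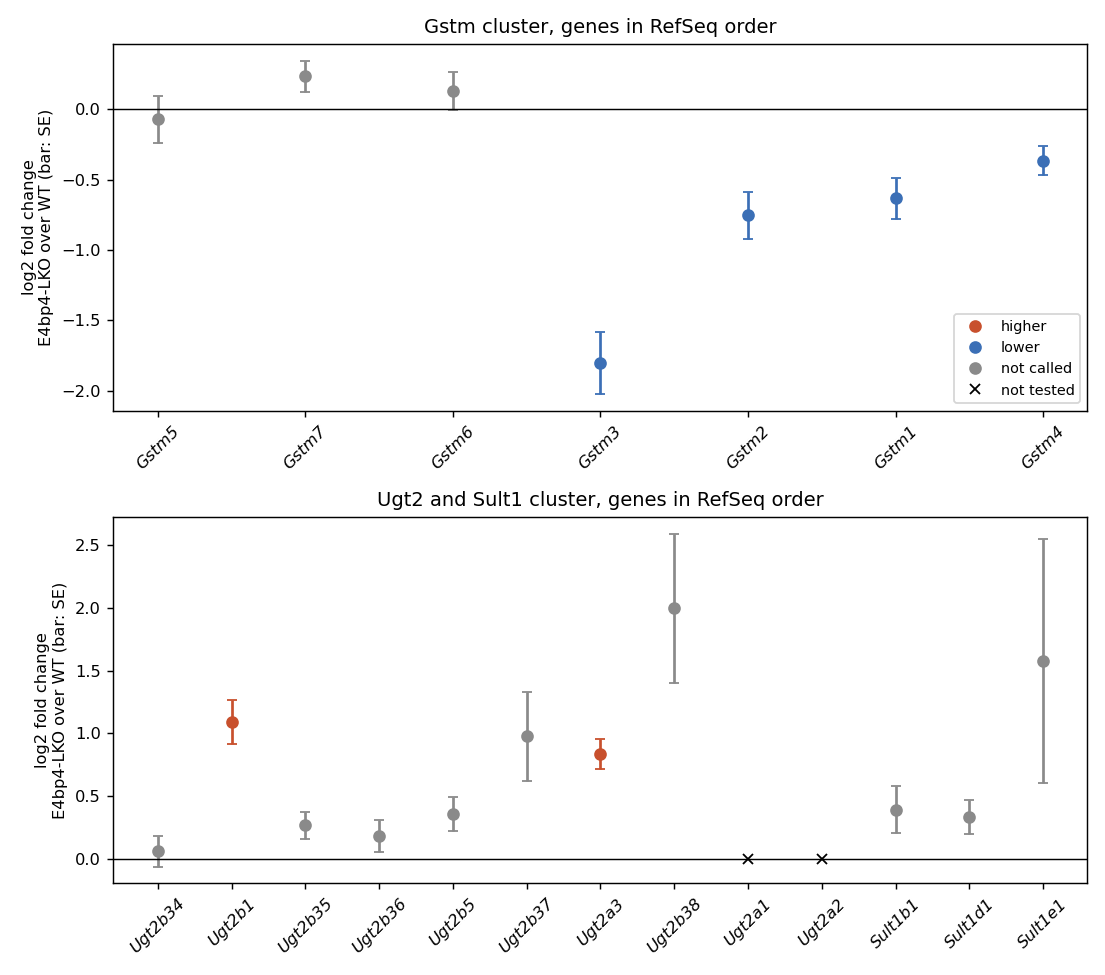
Log2 fold change (E4bp4-LKO over WT, vertical axis) with its SE for the members of 2 gene clusters, placed in RefSeq order without distances; crosses at 0 mark genes not tested. In the upper panel the 4 blue mu-class genes stand side by side, and in the lower panel the 2 red genes, Ugt2b1 and Ugt2a3, are separated by genes that were not called.

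Mgst3, a membrane-bound member that also acts on leukotriene A4 and lipid peroxides, was 35.0, 34.4, 32.8 and 36.0 CPM in WT and 13.8, 19.4, 18.6 and 21.5 CPM in E4bp4-LKO. The WT livers lay within a narrow band, and all were above the E4bp4-LKO livers. Its fitted log2 fold change came to -0.92 (SE 0.12, adjusted p = 0.00181), the smallest adjusted p among the members. Mgst1, the abundant microsomal enzyme, measured 2624 ± 505 CPM in WT and 2822 ± 149 CPM in E4bp4-LKO (SD, n = 4). On the log2 scale, its fitted fold change came to 0.10 (adjusted p = 0.681) with TMM and -0.038 with library totals, where the median of all genes moved to -0.15.

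Of the pi class, which is known as male-predominant in mouse liver, Gstp3 fell while its abundant neighbour Gstp1 was not called. Gstp3 measured 20.4, 19.3, 22.7 and 25.5 CPM in WT and 15.03, 12.0, 15.8 and 13.7 CPM in E4bp4-LKO. The groups did not overlap, and the fitted log2 fold change came to -0.64 (SE 0.11, adjusted p = 0.0086). Gstp1 measured 945, 975, 1028 and 909 CPM in WT and 1176, 985, 1032 and 1513 CPM in E4bp4-LKO, with overlap, and its log2 value was 0.29 (adjusted p = 0.193). Gstp1 and Gstp2 cannot be read as separate genes with confidence. In transcripts of the GENCODE M21 annotation, 62.3% of the 50-base windows of Gstp1 and 72.6% of those of Gstp2 occur also in another gene, whereas none of Gstp3 does.

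The alpha class held the one Gst that rose. Gsta3, an enzyme known for detoxifying aflatoxin epoxide in the mouse, measured 851, 1009, 1128 and 1245 CPM in WT and 1527, 1557, 1363 and 1774 CPM in E4bp4-LKO. No WT liver reached an E4bp4-LKO liver, and the fitted log2 fold change came to 0.56 (SE 0.13, adjusted p = 0.0274). It supplied 85.1% of the summed alpha-class counts, which were 1.38 times as high in E4bp4-LKO. Gsta4, which handles the lipid aldehyde 4-hydroxynonenal, stood 0.22 higher on the log2 scale (adjusted p = 0.283), and Gsta2 0.14 higher (adjusted p = 0.654; -0.019 with library totals). Gsta1 had a log2 value of the opposite sign, -0.56 (SE 0.30, adjusted p = 0.262), with E4bp4-LKO livers spread from 39.6 to 97.6 CPM. Of the Gsta1 windows 89.7% also occur in another gene.

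The remaining soluble classes did not pass the test. The log2 fold change of theta-class Gstt1 stood at 0.34 (adjusted p = 0.149), that of Gstz1, the maleylacetoacetate isomerase of tyrosine breakdown, at 0.26 (adjusted p = 0.172), and that of Gstk1, the mitochondrial and peroxisomal kappa enzyme, at 0.24 (adjusted p = 0.204). Gstz1 and Gstk1 had groups that did not overlap in CPM, at 624 ± 99.2 against 749 ± 20.3 CPM and 107 ± 19.5 against 127 ± 1.502 CPM (SD, n = 4). In FPKM the groups of each of these genes overlapped. In both, the WT values were the more scattered, with WT 164 the lowest. Gstt2 had a log2 fold change of -0.03, Gstt3 of -0.21 and Gstcd of -0.18. Gsto1, the omega-class enzyme, had 0.14 with TMM and -0.011 with library totals.

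Among the glucuronosyltransferases the rises were held by 3 genes of different subfamilies. Ugt1a9, one of the Ugt1a enzymes, measured 47.8, 69.8, 55.1 and 64.9 CPM in WT and 205, 113, 157 and 204 CPM in E4bp4-LKO. The lowest E4bp4-LKO liver, number 144, stood well above the highest WT liver. The fitted log2 fold change came to 1.51 (SE 0.20, adjusted p = 0.00318), a 2.86-fold higher level. The Ugt1a genes each have their own promoter and first exon and share their later exons, so a read from the shared part names no single gene. Correspondingly 62.0% of the Ugt1a9 windows occur in another gene, and Ugt1a10 is the gene that shares the most (61.8%). All 63 listed Ugt1a entries over the libraries were fractional.

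No other Ugt1a gene passed the test. Ugt1a1, the bilirubin-conjugating enzyme and the one with the highest level per length among Ugt1a genes in E4bp4-LKO, measured 434, 495, 593 and 605 CPM in WT and 551, 658, 693 and 686 CPM in E4bp4-LKO, with overlap. Its fitted log2 fold change came to 0.28 (SE 0.13, adjusted p = 0.170). Ugt1a5 had -0.37 (adjusted p = 0.412), Ugt1a6a -0.19 (adjusted p = 0.225 with TMM and 0.0223 with library totals) and Ugt1a6b -0.04 (adjusted p = 0.810). Every Ugt1a6a window occurs in another gene, so its value cannot be taken as its own. Ugt1a7c, at 2.52 ± 0.861 CPM in WT and 1.26 ± 0.380 CPM in E4bp4-LKO (SD, n = 4), was at -0.996 on the log2 scale (SE 0.29) with an adjusted p of 0.0503. Ugt1a10 had 1.30 (SE 0.44, adjusted p = 0.0786) at 0.411 ± 0.293 and 1.01 ± 0.324 CPM (SD, n = 4). Of its windows 66.2% occur in another gene and 60.3% in Ugt1a9, so its value cannot be taken as its own either.

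The promoters of Ugt1a9 and Ugt1a10 are shown because these neighbours had the highest positive values of the Ugt1a row and are the closest pair in sequence. Their windows from 250 bases before to 50 after the start were 70.9% identical, against 44.3% to 50.3% for the other 20 pairs of Ugt1a promoters. The 250 bases before each start follow, from RefSeq on GRCm38.p6, with the longest run common to both, 32 bases, in capitals.
Ugt1a9 (chr1:88070529-88070778, plus strand): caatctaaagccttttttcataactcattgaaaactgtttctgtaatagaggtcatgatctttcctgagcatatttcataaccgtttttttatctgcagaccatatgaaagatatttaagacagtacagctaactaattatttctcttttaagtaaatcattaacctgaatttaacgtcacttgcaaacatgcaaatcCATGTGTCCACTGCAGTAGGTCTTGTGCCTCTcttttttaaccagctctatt
Ugt1a10 (chr1:88055161-88055410, plus strand): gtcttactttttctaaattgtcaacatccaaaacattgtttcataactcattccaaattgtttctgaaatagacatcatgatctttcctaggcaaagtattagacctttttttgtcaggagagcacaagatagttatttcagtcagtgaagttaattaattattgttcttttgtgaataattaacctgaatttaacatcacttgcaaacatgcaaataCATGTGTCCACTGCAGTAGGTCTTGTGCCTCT

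Ugt2b1, a steroid-conjugating enzyme known as male-predominant, measured 160, 233, 287 and 270 CPM in WT and 601, 477, 422 and 523 CPM in E4bp4-LKO. All E4bp4-LKO livers were above all WT livers. On the log2 scale, its fitted fold change came to 1.09 (SE 0.18, adjusted p = 0.0060), a 2.13-fold higher level, and none of its windows occurs in another gene. Ugt2a3, which glucuronidates bile acids, measured 105, 118, 145 and 148 CPM in WT and 222, 218, 218 and 259 CPM in E4bp4-LKO. The E4bp4-LKO livers were close together apart from number 179, and the fitted log2 fold change came to 0.83 (SE 0.12, adjusted p = 0.00331).

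Of the 7 Ugt2b genes, Ugt2b1 alone passed the test. All 7 had a log2 fold change above 0 with TMM, but Ugt2b34 was at -0.096 with library totals. Ugt2b5, the glucuronosyltransferase with the highest level per length, had 0.36 (SE 0.14, adjusted p = 0.111), at 665 ± 69.4 CPM in WT and 852 ± 147 CPM in E4bp4-LKO (SD, n = 4). Ugt2b34 had 0.06 with TMM, Ugt2b35 0.27 and Ugt2b36 0.18, and the low-level Ugt2b37 had 0.97 (adjusted p = 0.103). Ugt2b38 measured 0.491, 1.19, 1.61 and 1.15 CPM in WT and 10.3, 2.80, 1.65 and 2.86 CPM in E4bp4-LKO. Its groups did not overlap in CPM but did in FPKM. E4bp4-LKO 143 stood far above the rest and the adjusted p was 0.0646 (log2 fold change 2.00, SE 0.60). Without that liver the log2 fold change was 1.14. Of the Ugt2b38 windows 37.4% occur in another gene and 34.1% in the abundant Ugt2b5, so a division of reads could shift its value. The summed Ugt2b level was 2131 ± 227 CPM in WT and 2719 ± 386 CPM in E4bp4-LKO, with overlap. Of the Ugt3a genes, a family known to use other UDP sugars, Ugt3a2 had 0.45 (SE 0.14, adjusted p = 0.0601) and Ugt3a1 0.30 (adjusted p = 0.135).

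The promoter of Ugt2b1 is shown because it was the one member, of 51 with a RefSeq promoter, that held a D-box, searched as TTACGTAA and TTATGTAA on both strands. This is 1.96% of the members, beside 1.23% of all 27025 genes with a promoter in that table. The 250 bases before the start follow, with the D-box match, read on the other strand as TTACATAA, in capitals; it begins 59 bases before the start.
Ugt2b1 (chr5:86926504-86926753, minus strand): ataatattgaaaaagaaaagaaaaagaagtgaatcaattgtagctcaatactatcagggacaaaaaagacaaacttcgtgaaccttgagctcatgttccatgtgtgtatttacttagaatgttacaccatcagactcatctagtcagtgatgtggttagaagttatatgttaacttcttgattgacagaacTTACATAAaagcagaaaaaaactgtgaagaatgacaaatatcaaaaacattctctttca

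The core of the antioxidant response element, through which NRF2 acts on many conjugation genes, was searched as TGACNNNGC on both strands and was found in 4 of the 51 promoters (7.84%), beside 14.0% of all genes. Among the 12 called members Gsta3 alone held it, and its 250 bases before the start follow with the match in capitals, beginning 121 bases before the start. A match of letters says nothing of binding in these livers. The STAT motif TTCNNNGAA, relevant to growth hormone signalling, was found in 6 promoters (11.8%), beside 9.55% of all genes, and in 0 of the 12 called members.
Gsta3 (chr1:21240335-21240584, plus strand): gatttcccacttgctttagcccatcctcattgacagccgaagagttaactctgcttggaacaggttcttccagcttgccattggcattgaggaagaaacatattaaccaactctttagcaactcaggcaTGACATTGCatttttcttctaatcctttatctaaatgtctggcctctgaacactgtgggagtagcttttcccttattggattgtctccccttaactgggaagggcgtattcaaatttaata

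The sulfotransferases held the largest rise of the 48 members. Sult2a8, which sulfates bile acids, measured 19.0, 41.2, 105 and 100 CPM in WT and 441, 522, 498 and 558 CPM in E4bp4-LKO. The WT livers differed among themselves by more than the E4bp4-LKO livers did in proportion, with WT 164 and 165 lowest, yet every E4bp4-LKO liver lay far above them. Its fitted log2 fold change came to 2.93 (SE 0.52, adjusted p = 0.0148) with all livers, a 7.60-fold higher level, and to 2.30 without WT 164 and WT 165. It supplied 99.7% of the summed Sult2 counts and brought the Sult total from 374 ± 96.8 to 859 ± 41.9 CPM (SD, n = 4). No window of it occurs in another gene.

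Sult5a1, a little-studied family member, measured 1.24, 2.84, 4.17 and 3.43 CPM in WT and 9.55, 4.91, 7.499 and 11.5 CPM in E4bp4-LKO, with no overlap. On the log2 scale, its fitted fold change came to 1.52 (SE 0.36, adjusted p = 0.0289). Sult1e1, the oestrogen sulfotransferase, measured 0.578, 2.26, 2.70 and 4.30 CPM in WT and 20.9, 4.28, 2.87 and 0.848 CPM in E4bp4-LKO. Its log2 fold change of 1.58 (SE 0.97, adjusted p = 0.340) did not pass the test, and E4bp4-LKO 143 was the one liver above the WT range. Sult1d1, which sulfates catecholamines, had 0.33 (adjusted p = 0.135), Sult1b1 0.39 (adjusted p = 0.209) and Sult1c2 -0.18 (adjusted p = 0.438). Sult1a1, the main phenol sulfotransferase, measured 181 ± 30.8 and 188 ± 10.8 CPM (SD, n = 4), and its log2 value of 0.05 (adjusted p = 0.817) was -0.093 with library totals. Sult2a7, at under 1.2 CPM in every liver, had 0.40 (adjusted p = 0.713) with all livers and -0.36 without WT 164 and WT 165.

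**Figure D3:**
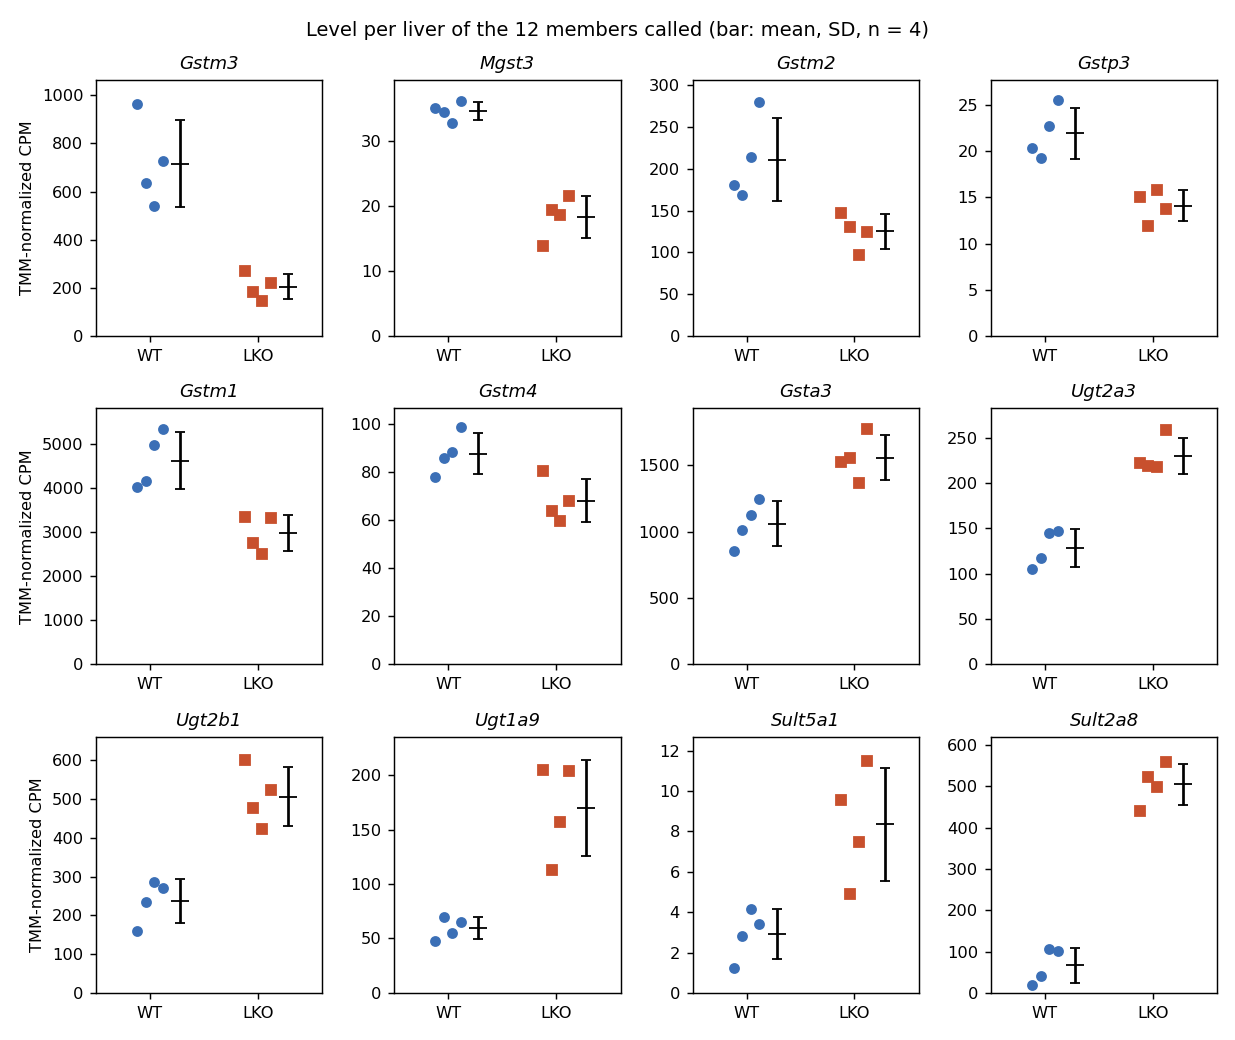
TMM-normalized CPM (vertical axis, from 0) per liver for the 12 members called, with WT as blue circles (mice 164 to 167 from left to right), E4bp4-LKO as red squares (143, 144, 145, 179; written LKO) and bars for mean and SD. The groups are apart in every panel except that of Gstm4, where E4bp4-LKO 143 at 80.5 lies above WT 164 at 78.1.

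The 11 members that were not tested were Gsto2, Mgst2, Sult2a1, Sult2a2, Sult2b1, Sult3a1, Sult4a1, Sult6b1, Ugt1a2, Ugt2a1 and Ugt2a2. A count of 3 stood for 0.0929 to 0.126 CPM by library totals, before TMM, and most values of these genes lay at or near it. An exception was Ugt2a1 in E4bp4-LKO 144, at 0.922 CPM with TMM. Sult2a1, Sult2a2 and Sult3a1, which are known as female-predominant in mouse liver, were at 0 in all 4 E4bp4-LKO libraries and reached at most 0.140, 0.0610 and 0.0699 CPM in WT. Differences in these 3 genes were not detectable at this depth.

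Per transcript length, the ranking of the most abundant members differed between groups. Gstm1 stood at 3732 ± 257 FPKM in WT and 2171 ± 314 FPKM in E4bp4-LKO, and Mgst1 at 2971 ± 361 and 2893 ± 180 FPKM (SD, n = 4). Gstm1 was the higher of these in all 4 WT livers and Mgst1 in all 4 E4bp4-LKO livers. Gstp1 followed at 1413 ± 122 and 1545 ± 311 FPKM and Gsta3 at 801 ± 71.8 and 1065 ± 113 FPKM. Among sulfotransferases Sult1a1 led in all 4 WT livers, at 132 ± 14.7 FPKM against 32.1 ± 19.4 FPKM for Sult2a8. Sult2a8 led in all 4 E4bp4-LKO livers, at 226 ± 19.8 FPKM against 124 ± 7.55 FPKM for Sult1a1. Ugt2b5 led its family in both groups, at 368 ± 22.1 and 425 ± 74.1 FPKM. In WT 17 members and in E4bp4-LKO 20 members had a mean of at least 100 FPKM.

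**Figure D4:**
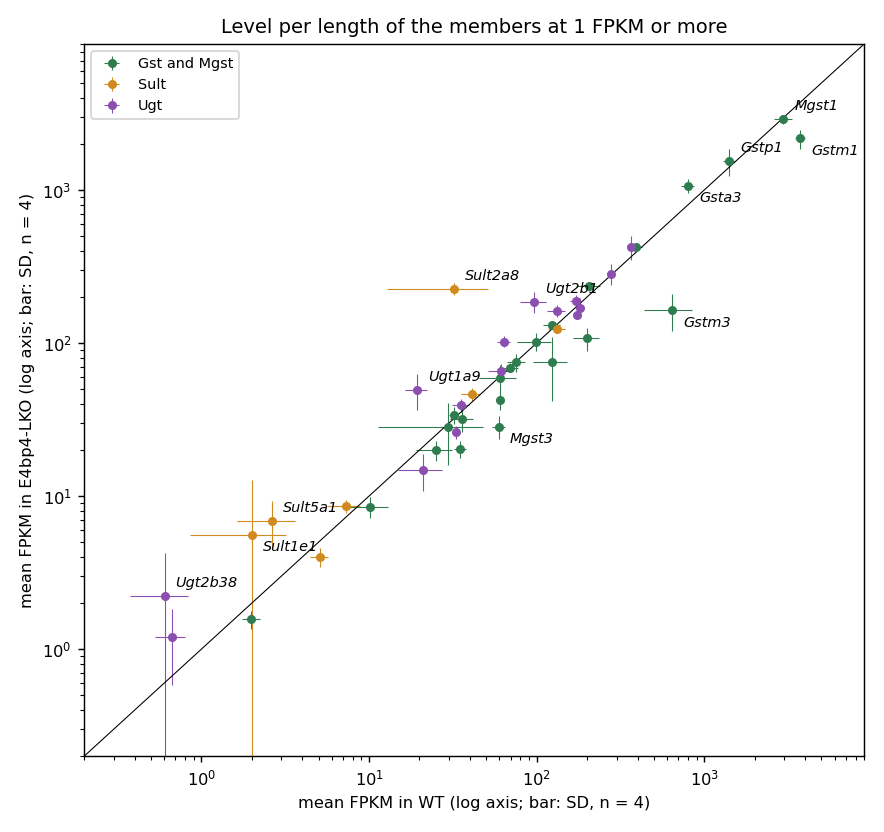
Mean FPKM in E4bp4-LKO (vertical, log axis) against WT (horizontal, log axis) with SD bars (n = 4) for the 45 members with a mean of at least 1 FPKM in either group, coloured by family; bars that would pass 0 run off the axis. Gstm3 and Mgst3 lie below the line of equality and Sult2a8 above it, at 32.1 in WT and 226 in E4bp4-LKO.

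Summed levels differed between groups for some subfamilies, while the total over the 59 members was 15959 ± 1925 CPM in WT and 16266 ± 1439 CPM in E4bp4-LKO (SD, n = 4). In FPKM that total had a ratio of 0.890, with overlap. The Gst and Mgst sum was lower in E4bp4-LKO, with overlap in CPM (ratio 0.901) and without it in FPKM (ratio 0.833). The mu-class sum was lower and the Sult2 sum higher in E4bp4-LKO without overlap in both CPM and FPKM. The Sult2 sum was 67.4 ± 43.6 CPM in WT and 506 ± 49.1 CPM in E4bp4-LKO. The alpha-class sum (1292 ± 154 to 1777 ± 208 CPM) and the Ugt sum (3757 ± 451 to 4751 ± 479 CPM) did not overlap in CPM but did in FPKM. The Ugt1a sum had a ratio of 1.16, the Gstp sum of 1.21 and the Sult1 sum of 1.13, each with overlapping groups. These sums are descriptions, and no test was run on them.

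**Figure D5:**
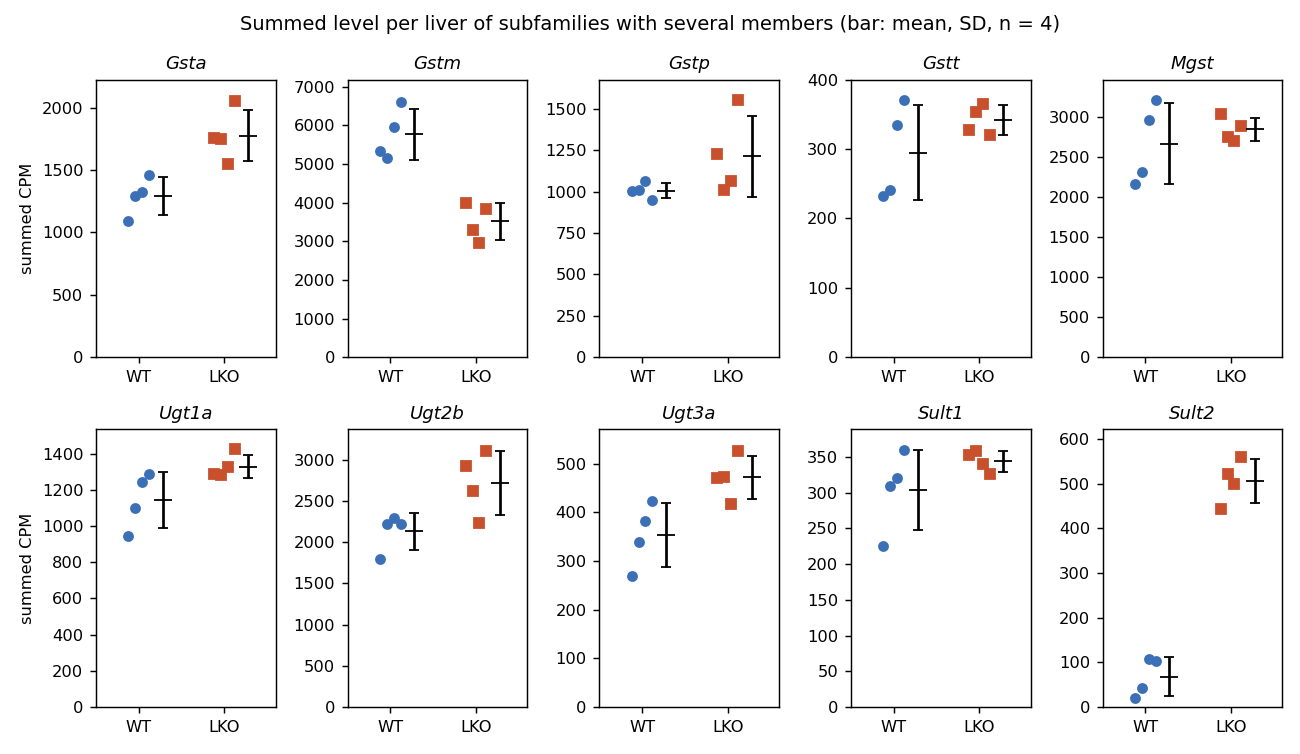
Summed TMM-normalized CPM (vertical axis, from 0) per liver for each subfamily with more than 1 member tested, with WT as blue circles, E4bp4-LKO (written LKO) as red squares and bars for mean and SD. The mu-class (Gstm) squares all lie below the circles, from 2957 to 3986, and the Sult2 squares all lie above, from 442 to 559.

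Counting affected the families unequally. Of the member entries listed, 55.6% were fractional, beside 26.3% for all genes, and a fractional expected count means that reads were divided between transcripts or genes. The share was 98.7% for Ugt, 46.9% for Gst and Mgst and 3.26% for Sult, and within Gst it was 80.4% for the mu class and 0% for the theta class. Whole numbers in every library were found for 25 members, among them Mgst3, Gstp3 and Sult5a1. Of the called mu-class genes, 28.8% of the windows of Gstm3, 23.1% of Gstm1, 9.36% of Gstm2 and none of Gstm4 occur in another gene, in part in pseudogenes. A division of reads among Gstm1, Gstm2 and Gstm3 could shift their single values, so these are uncertain to that extent, whereas Mgst3, Gstp3, Gsta3, Ugt2b1 and Sult2a8 share no window. Even so, counts were fractional in 6 of 8 libraries for Gsta3 and Ugt2b1, in 3 of 8 for Sult2a8 and in 7 of 8 for Gstm4. Those of Ugt2a3 were fractional in all 8, and 4.55% of its windows occur in another gene.

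The calls were of unequal stability. When each liver was left out in turn, 7 members were called in all 8 fits: Gstm3, Mgst3, Gstp3, Sult2a8, Ugt1a9, Ugt2a3 and Ugt2b1. Gstm1 lost its call without E4bp4-LKO 144 or 145 (adjusted p up to 0.0744), and Gstm2 without 144, 145 or 179 (up to 0.0616). Gsta3 lost it without WT 165, E4bp4-LKO 144 or 179 (up to 0.0842) and Sult5a1 without WT 165, E4bp4-LKO 143, 145 or 179 (up to 0.0823). Gstm4 lost it without any of WT 165, 166 and 167 or E4bp4-LKO 144, 145 and 179 (up to 0.125). The 12 called members were the same 12 without WT 164, and 9 of them remained without both WT 164 and WT 165. DESeq2 called the same 12 and 5 more: Ugt1a7c, Ugt1a10, Ugt2b5, Ugt2b38 and Ugt3a2.

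The genes that feed, undo or complete conjugation were taken from lists compiled with earlier results of these data known. Glutathione supply had 0 of 11 tested genes higher and 1 lower (9.09% called, beside 10.8% of all genes tested). The lower gene was Gss, the glutathione synthetase, which fell from 109 ± 5.65 to 83.2 ± 5.70 CPM, at an adjusted p of 0.0108 (log2 fold change -0.39). Chac2, which degrades glutathione, and Cth and Cbs, which make its precursor cysteine, were at 0.29, 0.31 and 0.33 on the log2 scale and were not called (adjusted p = 0.0742, 0.123 and 0.139). Of 7 genes of UDP-glucuronic acid supply, 0 rose and 1 fell (14.3% called). This was the phosphoglucomutase gene listed under the symbol Pgm1, at a low 11.8 ± 1.72 CPM in WT (-0.71, adjusted p = 0.0099). The far more abundant phosphoglucomutase gene of the list, under the symbol Pgm2, was not called (0.18, adjusted p = 0.245). It measured 268 ± 29.1 CPM in WT and 302 ± 13.7 CPM in E4bp4-LKO. Ugp2 and Ugdh, which make UDP-glucose and oxidise it to UDP-glucuronic acid, each had -0.33 (adjusted p = 0.109 and 0.111 in edgeR). Ugp2 was called lower by DESeq2, with library totals and in every limma fit on FPKM. Ugdh was called lower with library totals, by limma with a low-value filter at each pseudocount, and in edgeR without E4bp4-LKO 143. Slc35b1 had 0.16 (adjusted p = 0.134). Of 9 genes of PAPS supply 0 were called in edgeR and 3 had an unadjusted p under 0.05. Papss2, the main PAPS synthase of liver, had 0.50, with an adjusted p of 0.0829 in edgeR and of 0.026 in DESeq2.

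Of 4 genes that reverse conjugation 1 fell (25.0% called, beside 10.8% of all genes tested). This was Gusb, the lysosomal beta-glucuronidase, at 60.0 ± 1.59 CPM in WT and 46.2 ± 4.89 CPM in E4bp4-LKO. Its adjusted p was 0.0170 (log2 fold change -0.38). Of 9 genes linked to conjugate export 1 rose and 2 fell (33.3% called, beside the same 10.8%). The transporter gene Abcc6 had 0.50 (adjusted p = 0.0243), Abcc4 -0.54 (adjusted p = 0.0248) and Abcc5 -0.63 (adjusted p = 0.0339). Abcc1 had -0.56 and was not called in edgeR (adjusted p = 0.0593). DESeq2 and library totals called Abcc1 lower, as did edgeR without WT 167 or without E4bp4-LKO 143. Abcc2, the canalicular exporter of glucuronides and glutathione conjugates, had 0.17 (adjusted p = 0.241). Of 12 genes of other conjugation reactions 2 rose and 0 fell (16.7% called, again beside 10.8%). Nat8, an acetyltransferase that completes mercapturic acids from glutathione conjugates, measured 8.76, 9.28, 12.8 and 12.2 CPM in WT and 50.9, 67.8, 62.4 and 66.6 CPM in E4bp4-LKO. It rose by 2.53 on the log2 scale (SE 0.14, adjusted p = 1.1e-05), though its counts were fractional in all 8 libraries. Inmt, an amine N-methyltransferase, rose by 0.92 (SE 0.19, adjusted p = 0.0171).

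Of 18 regulators 1 rose and 1 fell, a share of 11.1%, near the 10.8% of all genes tested. Ahr, the aryl hydrocarbon receptor, fell from 69.9 ± 4.29 to 50.5 ± 7.64 CPM, at an adjusted p of 0.0202 (log2 fold change -0.47). Tef, an activator that binds D-boxes, had 0.34 (adjusted p = 0.0472). Nfe2l2, which encodes NRF2, had -0.18 (adjusted p = 0.227), and Nr1i3, the constitutive androstane receptor, 0.60 (adjusted p = 0.137). Of the 70 genes tested over these 7 lists 4 rose and 6 fell, which is 14.3% called, beside 10.8% of all genes tested. With library totals in place of TMM 3 rose and 12 fell, and without both WT 164 and WT 165 2 rose and 0 fell. Several single calls lapsed when 1 liver was left out: Abcc4 and Abcc6 each without WT 165, E4bp4-LKO 144 or 145, Ahr without E4bp4-LKO 144 or 145, and Gusb and Inmt each without WT 165 or E4bp4-LKO 144. Abcc5 lapsed without WT 164, WT 165, E4bp4-LKO 144, 145 or 179, and Tef without WT 164, 165 or 166, or E4bp4-LKO 144, 145 or 179.

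Markers of some cell types differed between groups, and in whole liver fewer cells of a type and less RNA per cell cannot be told apart. Over all genes tested 4.36% were called higher in E4bp4-LKO and 6.48% lower. Summed hepatocyte markers ran from 55026 to 72023 CPM in WT and from 72027 to 89793 CPM in E4bp4-LKO, with 1 of 6 markers higher (Serpina1c). Stellate cell and myofibroblast markers were lower for 4 of 8, with sums of 752 to 1478 CPM in WT and 444 to 630 CPM in E4bp4-LKO. Macrophage markers were lower for 3 of 7, with overlapping sums of 643 to 897 CPM in WT and 479 to 667 CPM in E4bp4-LKO. Cholangiocyte markers were lower for 1 of 5 (Spp1), with sums of 191 to 472 and 77.7 to 104 CPM. All 5 cholangiocyte markers tested had a log2 fold change below 0 and an unadjusted p under 0.05 in edgeR. The unadjusted p was under 0.05 for 6 of 8 stellate, 4 of 7 macrophage and 2 of 6 hepatocyte markers. Over all genes tested this held for 3748 of 13244. Of endothelial and lymphocyte markers 0 and 0 were called by edgeR (1 and 0 at an unadjusted p under 0.05), and their sums overlapped. WT 164 had the highest sums of stellate, macrophage and cholangiocyte markers and also the highest Gstm3. Other called mu-class genes differed from this: WT 164 was the lowest WT liver for Gstm1 (4008 CPM) and Gstm4 (78.1 CPM). Among zonal hepatocyte markers, 2 of 6 pericentral (Axin2 and Cyp1a2) and 1 of 6 periportal (Cyp2f2) were higher. At an unadjusted p under 0.05 in edgeR, 5 of 6 pericentral and 4 of 6 periportal markers passed, in either direction. The log2 fold change was above 0 for 6 of 6 pericentral and 4 of 6 periportal markers. The pericentral sums were 4652, 6058, 9701 and 10079 CPM in WT 164 to 167 and ran from 10244 to 12320 CPM in E4bp4-LKO. WT 164 and WT 165 were the lowest WT livers in this sum, as they were for Sult2a8. The same held for other members, whatever their direction, among them Gsta3 (higher in E4bp4-LKO), Gstm1 (lower) and Mgst1 (not called). Periportal sums were 3172 to 5575 CPM in WT and 4918 to 5537 CPM in E4bp4-LKO. The part of these shifts in the members' values was not tested.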

How the data were processed

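RNA sequencing of whole liver from 4 WT and 4 E4bp4-LKO mice was analysed. Per the labels' protocols, mRNA was obtained by oligo-dT selection or depletion of ribosomal RNA and reverse transcribed with random primers. The submitters' processing notes name HISAT2. The quantifier, genome build, annotation and strand were not given in sources used here. The deposited expected counts are estimated counts per gene, not normalized, and the deposited FPKM values were scaled by the authors for length and library. A gene absent from a library's file was set to 0 there. Every pair of libraries differed beyond counting noise (chi-square divided by degrees of freedom, at least 7.23). The labels do not say more about how the samples are independent, so p-values measure the spread between these samples.

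Expected counts were rounded and tested in R 4.3.3 with edgeR 4.0.16: filterByExpr (minimum count 10, minimum total 15), TMM and a robust two-sided quasi-likelihood test, with Benjamini-Hochberg adjustment over all 13244 genes tested and a threshold of 0.05. Positive log2 fold changes mean higher in E4bp4-LKO, and each SE belongs to the log2 value. The floor of 3 counts reflects counting error alone, because without molecular identifiers reads are not independent. Alternatives were DESeq2 1.42.0, its size factors in edgeR, library totals, other filters, limma 3.58.1 on log2(FPKM + 1) and log2(FPKM + 0.1), other thresholds and leaving out livers. The rule named called members, the member of each subfamily with the highest FPKM, members without overlap and a log2 fold change of at least 1 in size, up to 4 genes per list with the smallest p, and Nfil3. Every other member named is given to account for all of them, and Pgm2, Abcc2 and Nfe2l2 were named after their values were seen. Members, lists and markers were chosen with earlier results of these data known. Windows of 50 bases were compared between GENCODE M21 transcripts, and promoters came from RefSeq (GRCm38.p6). All 59 members were matched to a transcript and 51 to a promoter.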

Additional observations from a re-analysis of the deposited data

Results flagged for a closer look

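In 152 sets of 4 livers, a level whose gap to the nearest other liver divided by the set's range exceeded Dixon's 95% critical value was looked for. Chance gives about 1 in 20 sets of independent, normally distributed values, and 12 were found. These sets were not independent, because a sum can repeat its main member, and some held few counts. The number found can therefore not be set against chance. In WT 164 Gsto1 stood at 57.7 CPM, below the other WT livers at 80.9 to 85.0 CPM, and with it the Gsto sum at 57.8 CPM. In the same liver the Ugt2b sum was 1794 CPM, with the others at 2216 to 2292 CPM, and Ugt2b34 was 463 CPM, with the others at 552 to 558 CPM. Gstp2 was high in WT 164, at 37.4 CPM against 14.1 to 17.5 CPM, and Gsta1 was high in WT 165, at 127 CPM against 86.5 to 90.9 CPM. In E4bp4-LKO 179 Ugt2a3 stood at 259 CPM, above the others at 218 to 222 CPM, and with it the Ugt2a sum at 259 CPM. In E4bp4-LKO 143 Ugt2b38 reached 10.3 CPM, with the others at 1.65 to 2.86 CPM. In the same liver Sult1e1 reached 20.9 CPM, with the others at 0.848 to 4.28 CPM, and Ugt2a2 0.185 CPM, with the others at 0. Sult6b1 stood at 0.223 CPM in E4bp4-LKO 179, a value of few counts near the floor.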

How the results depend on the processing

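Expected counts for near-identical genes depend on how the authors' quantifier divided reads, and 4 livers a group limit the precision. Members called higher and lower, 6 and 6, ranged from 4 to 8 and from 3 to 6 when 1 liver was left out. DESeq2 called 10 members higher, and 1 member was lower with a change of at least 2-fold. Without WT 164 and WT 165 together 4 members were higher and 5 lower. Over the 7 lists, 4 genes were higher and 6 lower. Leaving out 1 liver gave 1 to 5 higher and 2 to 9 lower. DESeq2 gave 9 higher, limma without a low-value filter 2 higher, library totals 12 lower, limma on log2(FPKM + 1) and on log2(FPKM + 0.1) each 11 lower. Without WT 164 and WT 165 together 2 were higher and 0 lower, with 387 genes called in all. The cause was not tested. All-gene medians were -0.15 with library totals, -0.11 and -0.13 with limma on FPKM with pseudocounts of 1 and 0.1. The log2 fold changes that changed sign among the members and list genes tried were all of genes not called. With library totals Gsta2 was -0.019, Gstm6 -0.013, Gsto1 -0.011, Gstp2 -0.074, Mgst1 -0.038, Sult1a1 -0.093 and Ugt2b34 -0.096. In the limma fits on FPKM, Gsta2 was -0.011, Gsto1 -0.0065, Mgst1 -0.033 and Sult1a1 -0.088, Gstm6 was -0.017 or -0.018 with a pseudocount of 0.1, Gstp2 -0.0043 or -0.0034 and Ugt2b34 -0.107 or -0.108. Without WT 164 and WT 165 together Gstm5 was 0.24, Gstm6 -0.073, Mgst1 -0.11, Sts -0.050, Sult1a1 -0.089, Sult2a7 -0.36 and Ugt2b34 -0.0021. Leaving out 1 liver, values ran from -0.16 to 0.0045 for Arsa, -0.0088 to 0.31 for Gsta2, -0.17 to 0.041 for Gstm5, -0.18 to 0.56 for Gstp2, -0.15 to 0.101 for Gstt2, -0.32 to 0.027 for Gstt3, -0.057 to 0.13 for Sult1a1 and -0.026 to 0.15 for Ugt2b34. Sult5a1 was not tested with a filter at 5 CPM. No paired analysis was possible because the groups share no replicate numbers.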
